A study of Mus musculus with 2 samples.

Results

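Spp1 and Ccl11 fibroblasts, from the celiac and superior mesenteric ganglia of mice, were defined as barcodes in which fibroblast genes were present and in which Spp1, Ccl11, Crispld2 and Cxcl1 together exceeded Dlk1, Myoc, Kcnk2 and Bmp5. They numbered 1961 of 24873 barcodes, 983 in library 1 and 978 in library 2. All levels used for this choice were unique molecular identifiers (UMIs) per 10000 UMIs of the barcode. A member had at least 20 of Dcn, Lum, Col1a1 and Pdgfra summed and at least 5 of Spp1, Ccl11, Crispld2 and Cxcl1 summed. It had fewer than 3 UMIs in all of Cldn1, Lypd2 and Slc6a13, genes of the perineurial and epineurial sheath. It also had less than 5 of Clec3b, Inmt and Pcolce2, less than 10 of Ifit1, Ifit3 and Isg15, and less than 20 of the C1q genes of macrophages.

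The celiac and superior mesenteric ganglia are sympathetic ganglia that supply the abdominal organs. Their fibroblasts lie between neurons, glia and vessels, build the collagen matrix, and release chemokines and growth factors. Spp1 encodes osteopontin, a secreted matrix phosphoprotein that binds integrins and CD44. Ccl11 encodes eotaxin, the ligand of the eosinophil receptor Ccr3, and Cxcl1 encodes a ligand of the neutrophil receptor Cxcr2 whose mRNA is rapidly induced by inflammatory signals. Crispld2 encodes a secreted protein that binds lipopolysaccharide, and Apod encodes the lipid carrier apolipoprotein D.

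The study used 20 animals of 7 to 8 weeks, as many males as females, and deposited 2 libraries (CGSMG1 and CGSMG2) of 1 group, prepared with 10x Genomics 3' v3.1 chemistry from digested and triturated ganglia. The sources name no strain, genotype or treatment, and do not say which animals went into which library. The p-values measure only how differences between populations varied between these libraries, after the shift shared by all populations of a library was removed. This spread was estimated over all populations of a fit and may be technical. All comparisons are between populations of the same suspensions. Barcodes held 1501 to 44898 UMIs. Members held a median of 8064 UMIs in library 1 and 8770.5 in library 2, against 6483 and 6498 over all barcodes. The libraries shared 64 barcodes, and 12 member barcodes also occurred in the other library. Removing the shared barcodes left 7.88% of barcodes as members, on average over the libraries.

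Members made up 7.81% (95% exact Clopper-Pearson interval 7.34 to 8.29, counting error only) of barcodes in library 1 and 7.96% (7.49 to 8.46) in library 2. Of the barcodes past the fibroblast-gene gate they were 27.8% and 28.3%. Digestion and droplet capture can set these shares, so they are shares of captured barcodes and not of cells in the ganglion. With the lower bound on Spp1, Ccl11, Crispld2 and Cxcl1 at 10 or at 3 in place of 5, the mean share was 7.35% or 8.11% in place of 7.89%. Between 5 and 6 UMIs per 10000 there were 18 and 11 members, and 20 and 8 barcodes with 4 to 5 were left out. More barcodes lay near the bound on Clec3b, Inmt and Pcolce2. In library 1, 270 members lay between 3 and 5, and 262 barcodes that passed all other gates lay between 5 and 7. In library 2 these numbers were 309 and 244.

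The genes that name the population, which were used to choose it and are described without a test, were high in members but shared with neighbouring fibroblasts. Spp1 stood at 976 and 879 CPM (a gene's UMIs summed over the members of a library, scaled to a common total) in libraries 1 and 2. It stood at 695 and 666 CPM in Clec3b/Inmt fibroblasts, which have at least 5 of Clec3b, Inmt and Pcolce2 per 10000. In Dlk1/Myoc fibroblasts, in which the Dlk1 set has at least 5 per 10000 and exceeds the Spp1 set, it stood at 232 and 239 CPM. Ccl11 stood at 1511 and 1159 CPM in members, 1265 and 974 in Clec3b/Inmt fibroblasts and 718 and 698 in Dlk1/Myoc fibroblasts. For Crispld2 the levels were 1188 and 1394 CPM in members, 979 and 1134 in Clec3b/Inmt fibroblasts and 488 and 677 in Dlk1/Myoc fibroblasts. Cxcl1 reached 293 and 279 CPM in members, 172 and 187 in Clec3b/Inmt fibroblasts and 32.6 and 60.2 in Dlk1/Myoc fibroblasts. In each library members were the highest of the 3 for all 4 genes. The gates favour this order, because only members had a lower bound on these genes. In Dlk1/Myoc fibroblasts their sum was also held below that of the Dlk1 set. For Ccl11 the members of library 2 lay below the Clec3b/Inmt fibroblasts of library 1.

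The naming genes did not set members apart from their neighbours barcode by barcode. Of the Clec3b/Inmt fibroblasts, 928 of 1223 in library 1 and 901 of 1203 in library 2 would also have passed the bounds on Spp1, Ccl11, Crispld2 and Cxcl1. Conversely, 89.4% and 93.6% of members held a UMI of Dlk1, Myoc, Kcnk2 or Bmp5. Dlk1 stood at 298 and 267 CPM in members, against 778 and 646 CPM in Dlk1/Myoc fibroblasts. The Dlk1/Myoc population was small, with 125 and 149 barcodes, and shallower, with a median of 6040 and 5871 UMIs.

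**Figure D1:**
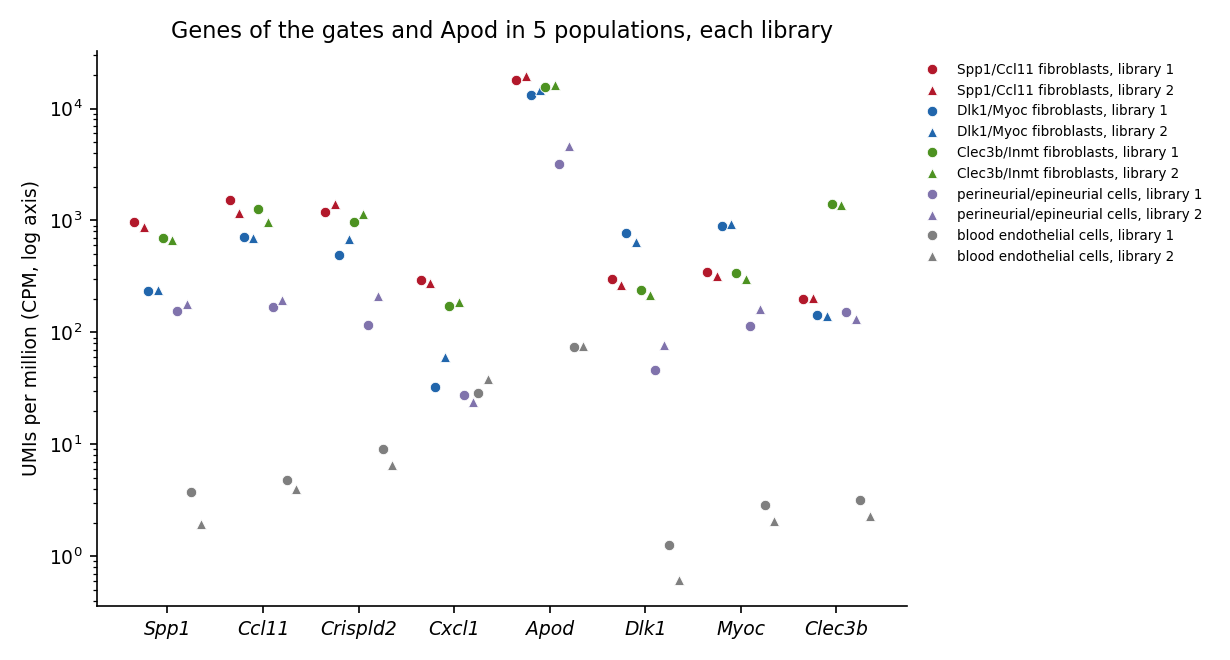
Levels of gate genes and Apod in 5 populations (CPM of summed UMIs, log axis; circles, library 1; triangles, library 2; no error bars, each point is 1 library). Spp1 in members (976 and 879 CPM) sits above Clec3b/Inmt fibroblasts (695 and 666) and Dlk1/Myoc fibroblasts (232 and 239), and far above blood endothelial cells (3.77 and 1.94).

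Detection per barcode was highest in members for Spp1, Ccl11, Crispld2 and Cxcl1 in both libraries. Members were chosen by these genes, so the gates favour this order and the shares are a description. After thinning to 5000 UMIs, which kept 720 and 717 members and left out 263 and 261 shallower ones, 84.3% and 84.4% of members held a Spp1 UMI (79.1% and 81.2% before thinning). The thinned share was 59.8% and 58.2% in Clec3b/Inmt fibroblasts, where 224 and 239 barcodes were left out. It was 51.3% and 55.8% in Dlk1/Myoc fibroblasts, where 49 and 63 were left out. Blood endothelial cells, which should lack the gene, had 1.66% and 0.843%, at median depths of 7370.5 and 7374 UMIs before thinning, with 341 and 320 left out. For Ccl11 the thinned share was 97.5% and 95.7% in members, 90.3% and 85.6% in Clec3b/Inmt fibroblasts and 86.8% and 87.2% in Dlk1/Myoc fibroblasts, so the last 2 changed order between the libraries. Cxcl1 was found in 30.0% and 29.8% of thinned members and in 9.80% and 10.1% of endothelial barcodes (33.5% and 31.8% and 12.8% and 12.3% before thinning). All 4 genes had a UMI in 252 (25.6%) and 253 (25.9%) members, and 1 gene alone carried 66 (6.71%) and 48 (4.91%).

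Across 5168 fibroblast barcodes thinned to 1500 UMIs, 4724 genes were ranked by likeness to the summed level of Spp1, Ccl11, Crispld2 and Cxcl1. Apod, a marker of the label that the gates did not read, was the most alike (Spearman's rho 0.67, as a description, and the points share libraries). Smoc2, a matricellular protein, followed at 0.57, Col15a1, a basement-membrane-associated collagen, at 0.52 and Sparc, a collagen-binding glycoprotein, at 0.47. The next were Cp, Gpc3, Col1a2, Trf, Rasgrp2 and Col3a1, the last at 0.34. Apod stood at 18148 and 19560 CPM in members, 15434 and 16345 CPM in Clec3b/Inmt fibroblasts and 13213 and 14676 CPM in Dlk1/Myoc fibroblasts.

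In GRCm38, the assembly of mm10, GENCODE M21 places Spp1 at chr5:104435118-104441050 and Cxcl1 at chr5:90891241-90893115, both on the plus strand. Ccl11 lies at chr11:82057823-82062955 on the plus strand, beside Ccl7 (chr11:82045712-82047525) and Ccl2 (chr11:82035571-82037453). Crispld2 is at chr8:119992438-120052793 on the plus strand and Apod at chr16:31296192-31314808 on the minus strand. The 250 bases before the start of Spp1 (the first of its listed starts) and of Cxcl1, from RefSeq on GRCm38.p6, are shown because Spp1 was found in most members and the inducible Cxcl1 in a minority. They lie at chr5:104434861-104435110 and chr5:90890995-90891244, plus strand, 5′ to 3′. Capitals mark matches, on either strand, to the consensus kappa-B site that NF-kB binds, which 7.01% of the 250-base windows of 27025 genes contain.
Spp1: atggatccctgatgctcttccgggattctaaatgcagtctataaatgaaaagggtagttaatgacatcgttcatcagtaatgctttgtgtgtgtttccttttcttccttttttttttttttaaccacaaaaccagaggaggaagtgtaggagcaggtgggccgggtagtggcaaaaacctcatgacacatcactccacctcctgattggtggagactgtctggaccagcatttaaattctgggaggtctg
Cxcl1: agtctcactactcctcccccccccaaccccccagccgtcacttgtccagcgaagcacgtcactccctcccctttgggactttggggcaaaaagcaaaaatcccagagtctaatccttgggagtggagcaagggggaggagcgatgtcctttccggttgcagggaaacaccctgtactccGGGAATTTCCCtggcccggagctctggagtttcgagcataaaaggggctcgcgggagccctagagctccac
The Cxcl1 window held 2 matches that overlap on opposite strands, starting 71 and 70 bases before the start, and the Spp1 window held none. Neither window held TGANTCA, the AP-1 consensus, on either strand, which 6.87% of windows contain. A match is a description of letters and not of binding.

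Most members held abundant fibroblast transcripts, and a minority held few. The summed level of Dcn, Lum, Col1a1 and Pdgfra had a median of 367 per 10000 in library 1 and 368 in library 2. It was below 100 in 180 (18.3%) and 132 (13.5%) members, against 72 (5.89%) and 78 (6.48%) Clec3b/Inmt fibroblasts and 38 (30.4%) and 39 (26.2%) Dlk1/Myoc fibroblasts. Members below 100 had 4379 and 3918 CPM of 7 neuronal markers summed (Snap25, Th, Dbh, Slc18a2, Tubb3, Stmn2, Npy), against 1279 and 1303 CPM in the other members. Mast cell markers (Cpa3, Mcpt4, Kit, Cma1) summed to 719 and 114 CPM below 100 and to 63.5 and 146 CPM above. Blood endothelial markers summed to 243 and 785 CPM below 100 and to 103 and 90.2 CPM above. Macrophage markers had 134 and 283 CPM against 61.8 and 58.5, and non-myelinating Schwann cell markers 970 and 867 CPM against 507 and 542. Dendritic or monocyte markers went the other way, with 13.5 and 26.0 CPM below 100 and 61.2 and 51.3 CPM above. Scrublet marked 80 (8.14%) and 103 (10.5%) members as doublets, against 561 (4.45%) and 625 (5.09%) of all barcodes. Counts that lead a comparison are also given for barcodes with at least 100 fibroblast-gene UMIs per 10000.

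**Figure D2:**
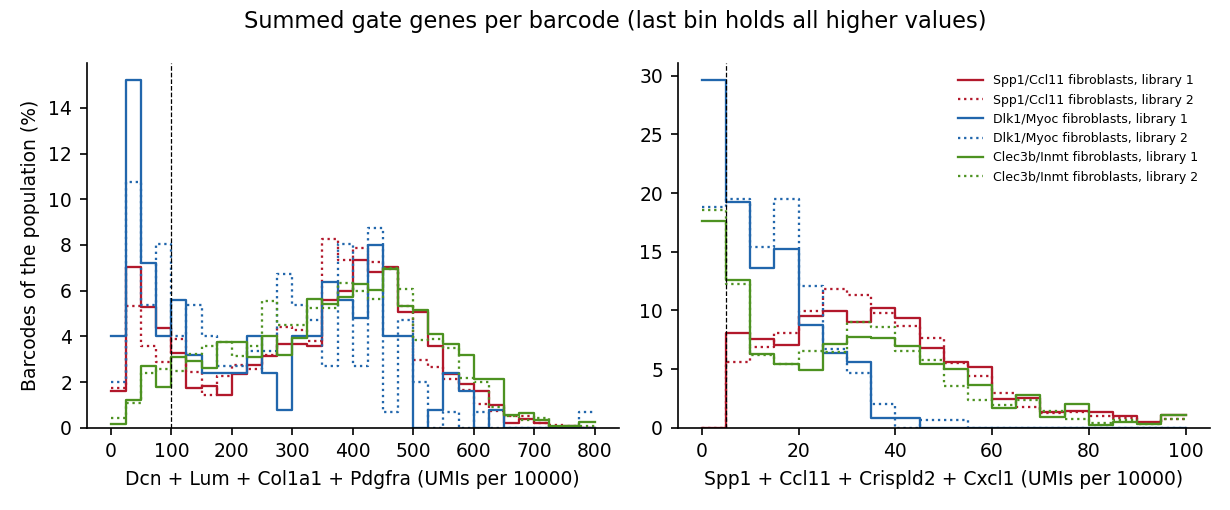
Distribution over barcodes of the summed fibroblast genes (left, 25-wide bins) and of the summed Spp1, Ccl11, Crispld2 and Cxcl1 (right, 5-wide bins), in UMIs per 10000, as percent of the population (solid, library 1; dotted, library 2; dashed lines at 100 and 5). The left panel shows a minority of members below 100, 18.3% and 13.5%, and a larger one of Dlk1/Myoc fibroblasts, 30.4% and 26.2%.

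Members differed among themselves in which of the 4 genes led. Crispld2 had the most UMIs in 325 (33.1%) members of library 1 and 471 (48.2%) of library 2, and Ccl11 in 376 (38.3%) and 258 (26.4%). Spp1 led in 158 (16.1%) and 144 (14.7%), Cxcl1 in 36 and 36, and 88 and 69 were tied. Ccl11 led more members than Crispld2 in library 1 and fewer in library 2.

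Ccl2, the monocyte-attracting chemokine that acts on Ccr2, varied more than 10-fold over these subsets. It stood at 663 and 419 CPM in Cxcl1-led members, 298 and 155 in Ccl11-led, 109 and 86.5 in Spp1-led and 37.8 and 31.2 in Crispld2-led members. Ccl7, which acts on the same receptor, had the order Cxcl1-led (230 and 261 CPM), Ccl11-led (150 and 122), Spp1-led (113 and 66.9) and Crispld2-led (34.3 and 34.7). Both libraries gave this order for both chemokines, and no neighbouring subsets overlapped. The Cxcl1-led subset holds few barcodes, and these subsets were formed by genes that the gates read.

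In the test of Spp1-led against Ccl11-led members, Ccl2 was the single gene of 12094 past an adjusted p of 0.05 (0.00827%). Its log2 difference was -1.14 ± 0.15 (SE, n = 2 libraries; edgeR quasi-likelihood test, adjusted p = 0.04998), just inside the threshold. The call was lost in 5 of 11 alternative settings, and the log2 difference was -0.12 when the gates and the leading gene were read on a random share of the UMIs and the test used the rest. An unadjusted p below 0.05 was reached by 541 genes. In simulated data of these sizes the test recovered 61.2% of genes changed 2-fold. The simulation gave every gene the same spread and no shift between libraries, so the rate may differ for the real sums.

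**Figure D3:**
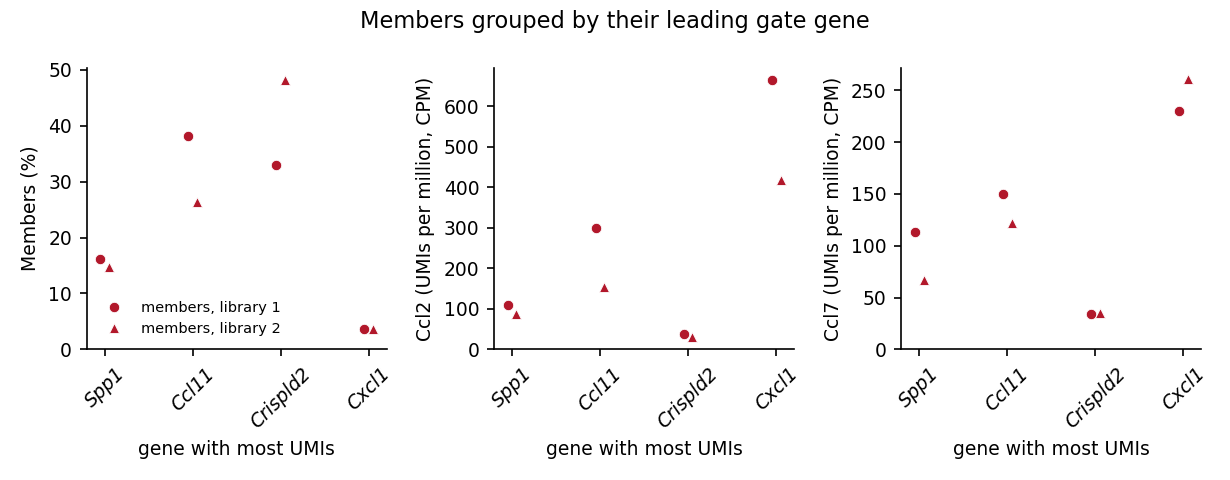
Members grouped by the gate gene with most UMIs: share of members (left, percent), Ccl2 (middle, CPM) and Ccl7 (right, CPM), with circles for library 1 and triangles for library 2. Cxcl1-led members hold 663 and 419 CPM of Ccl2 and Crispld2-led members 37.8 and 31.2 CPM.

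Against Dlk1/Myoc fibroblasts, members had more immediate early and heat shock transcripts, more of 2 monocyte chemokines and more of some collagen chains. Of 15233 genes tested, 363 (2.38%) passed, 224 (1.47%) higher in members and 139 (0.912%) lower (edgeR quasi-likelihood test, Benjamini-Hochberg adjusted p below 0.05). The genes that the gates read were left out of the test. The gate genes had been picked with clusters of these cells in view, so the test describes which genes go with the gate. With the stricter fibroblast-gene gate 124 (0.836%) of 14841 passed, 82 (0.553%) higher and 42 (0.283%) lower. Ccl2, Ccl7, Junb, Jun, Fos, Egr1, Klf2, Klf4, Thbs1, Sparc, Col1a2, Col3a1, Col4a1, Serpinh1, Bnc2 and Tmeff2, described next, kept their call in all 12 alternative settings that were run.

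Ccl2 stood at 188 and 93.3 CPM in members and at 17.6 and 9.18 CPM in Dlk1/Myoc fibroblasts, where the sums held 14 and 9 UMIs. Members were above in both libraries without overlap. The log2 difference was 3.46 ± 0.25 (SE, n = 2 libraries; edgeR adjusted p = 7.01e-06). A UMI of Ccl2 was found in 154 (15.7%) and 152 (15.5%) members, and the 5 members with most held 34.9% and 26.4% of its UMIs. Ccl7 stood at 106 and 74.4 CPM in members and 21.3 and 21.4 CPM in Dlk1/Myoc fibroblasts, a log2 difference of 2.12 ± 0.23 (edgeR adjusted p = 0.000188). Of the chemokine list outside the gates, 3 of 20 tested genes were higher, Ccl2, Ccl7 and Ccl9 (the last named after its value was seen), and 0 lower, and the median log2 difference was 0.55 against 0.02 over all genes. With the stricter gate 2 of 20 were higher, and the call of Ccl9 was lost in 6 of 11 alternative settings.

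Macrophages (506 and 328 CPM) and mast cells (2224 and 1126 CPM) also hold Ccl2. Macrophage markers summed to 68.6 and 74.1 CPM in members and 157 and 41.8 CPM in Dlk1/Myoc fibroblasts, and mast cell markers to 126 and 143 CPM and 147 and 137 CPM. In library 1 both sums were lower in members and in library 2 both were higher, and their part in Ccl2 and Ccl7 was not tested.

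Immediate early genes, transcription factors and feedback regulators that cells switch on quickly after stimulation or tissue digestion, were the list with the most genes higher in members. Of 38 listed genes with heat shock genes, 20 were higher in members, 0 were lower and 18 did not pass, and the median log2 difference was 0.59. Junb, an AP-1 subunit, stood at 1341 and 1266 CPM in members and at 635 and 625 CPM in Dlk1/Myoc fibroblasts (log2 difference 1.12 ± 0.06, edgeR adjusted p = 1.47e-06). Jun stood at 2168 and 2329 CPM against 1080 and 1514 (0.87 ± 0.07), and Fos at 1714 and 1765 CPM against 1026 and 1193 (0.72 ± 0.06). The zinc finger factor Egr1 had 1523 and 1805 CPM against 928 and 1158. Klf4 had 107 and 141 CPM against 36.4 and 71.4, Klf2 had 295 and 270 against 134 and 118, and the co-chaperone Dnajb1 had 408 and 356 against 99.2 and 205. In all of these genes the lower member library lay above the higher Dlk1/Myoc library.

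Fewer of these genes, and fewer of all genes, passed among barcodes without Cxcl1, itself an inducible gene and part of the gate. When barcodes with a Cxcl1 UMI were removed from every population (chosen after seeing the data), 12 of 38 were higher and 0 lower. Of all 14671 genes then tested, 181 (1.23%) passed, 101 (0.688%) higher and 80 (0.545%) lower. The removal left 654 and 667 members and 112 and 128 Dlk1/Myoc fibroblasts, and the part of these smaller numbers in the counts was not tested. The log2 difference of Junb was then 0.72, of Fos 0.43 and of Dnajb1 0.59, the last no longer past the threshold (edgeR adjusted p = 0.197). Ccl2 kept 2.89 and Ccl7 1.47. With the stricter fibroblast-gene gate 18 of 38 were higher. The part of tissue digestion in these levels was not tested.

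Of the NF-kB response list, 0 of 21 genes passed in edgeR, with a median log2 difference of 0.38. An unadjusted p below 0.05 was reached by 7 of them, all higher in members, and DESeq2 called 1 higher. Of the glucocorticoid response list 4 of 21 were higher and 0 lower, and they were Cebpb, Cebpd, Dusp1 and Errfi1, which immediate early signals also induce. Cebpb stood at 326 and 272 CPM in members against 166 and 162, and Dusp1, a phosphatase that turns off MAP kinases, at 281 and 274 CPM against 205 and 120.

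A minority of the matrix genes were higher in members. Of 29 collagen chains tested, 10 were higher, 0 were lower and 19 did not pass, with a median log2 difference of 0.39, and 6 were higher with the stricter gate. Col1a2, a chain of the main fibrillar collagen, stood at 4582 and 5072 CPM in members against 3151 and 3473 (log2 difference 0.61 ± 0.04, edgeR adjusted p = 5.56e-06). Col3a1 stood at 3892 and 4174 CPM against 2597 and 3027, and the basement membrane chain Col4a1 at 948 and 1018 CPM against 722 and 761. Sparc stood at 7722 and 8311 CPM against 4985 and 4815 (0.78 ± 0.05). Thbs1, an immediate early matricellular protein, stood at 299 and 294 CPM against 123 and 153 (1.16 ± 0.10), and the collagen chaperone Serpinh1 at 1202 and 1202 CPM against 771 and 858. Of 47 matrix glycoproteins 10 were higher, 2 lower and 35 did not pass, and of 40 proteases, inhibitors and crosslinkers 8 were higher, 1 lower and 31 did not pass. With the stricter gate these became 4 and 0 of 47, and 1 and 1 of 40. The 7 fibroblast markers summed to 52837 and 53401 CPM in members and 42781 and 43864 CPM in Dlk1/Myoc fibroblasts, and the part of this gap in the matrix genes was not tested.

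Genes lower in members came from several lists, of which some went both ways and some did not. Of 31 axon guidance ligands 4 were lower, Sema3c and Sema3d among them, and 0 higher, with a median log2 difference of -0.20. The calls of Sema3c and Sema3d were lost in 4 and 5 of 12 alternative settings. With the stricter gate 1 of the 31 was lower and 0 higher. Of 43 fibroblast transcription factors 2 were lower and 0 higher. Of 33 genes of BMP and TGF beta signalling 2 were lower, Fst and Chrdl1, and 2 were higher, Fstl1 and Id3. Of 36 other growth factors and angiogenic ligands 3 were lower, Penk, Npy and Ptn, and 2 were higher, Nrg1 and Ace. Neuronal markers, Npy among them, summed to 1573 and 1485 CPM in members and 2580 and 1845 CPM in Dlk1/Myoc fibroblasts, and their part in the lower genes was not tested. Penk, the enkephalin precursor, stood at 136 and 141 CPM in members and 226 and 226 CPM in Dlk1/Myoc fibroblasts (log2 difference -0.64 ± 0.10, edgeR adjusted p = 0.00521). Fst, the activin antagonist follistatin, stood at 16.6 and 13.9 CPM against 46.4 and 43.8 (-1.50 ± 0.25), and the BMP antagonist Chrdl1 at 4.35 and 2.27 CPM against 16.3 and 12.2. The leptin receptor Lepr had 29.3 and 24.1 CPM against 50.2 and 56.1, the transcription factor Bnc2 221 and 205 CPM against 525 and 349, and the transmembrane protein Tmeff2 62.5 and 62.6 CPM against 172 and 182. The groups of 2 libraries did not overlap in these genes. With the stricter gate, Penk, Lepr, Bnc2 and Tmeff2 kept their calls and Fst and Chrdl1 did not.

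Some of the largest differences rested on single barcodes or had many of their UMIs in a few. Cntn5, a neuronal adhesion gene, was lower in members at 29.2 and 40.7 CPM against 41.4 and 318 CPM, but 300 of the 312 UMIs in Dlk1/Myoc fibroblasts of library 2 lay in 1 barcode, and the log2 difference of -2.31 turned to 1.32 with the stricter gate. Epha5 had 116 of 139 UMIs of library 2 in 1 Dlk1/Myoc barcode. Zbtb7c (8.96 and 7.48 CPM against 86.6 and 23.4) had 52 of 69 UMIs of library 1 in 1 Dlk1/Myoc barcode. Its log2 difference stayed negative in all 12 alternative settings (-2.99 to -1.41), and its call was lost in 1. Nrg1, a ligand of ErbB receptors that neurons hold at 859 and 1088 CPM, stood at 43.0 and 25.4 CPM in members against 6.28 and 6.12. There the 5 members with most UMIs held 74.4% and 66.5% of them.

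**Figure D4:**
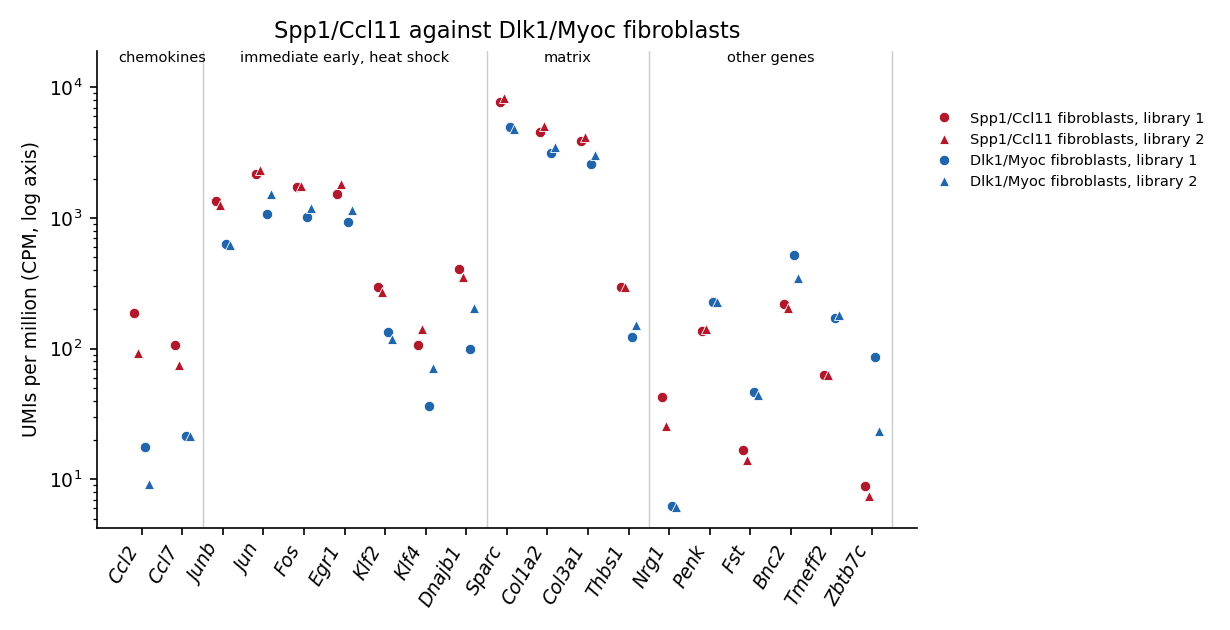
Levels of genes named in the comparison with Dlk1/Myoc fibroblasts (CPM of summed UMIs, log axis; circles, library 1; triangles, library 2; no error bars). Both member points lie above both Dlk1/Myoc points for the chemokines, immediate early, matrix genes and Nrg1, and below for the other 5; for Nrg1 the 5 top members hold 74.4% and 66.5% of the UMIs.

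Against Clec3b/Inmt fibroblasts, members had lower levels of many complement and IGF-axis genes and of some genes of BMP and Wnt signalling, by a large factor in a few such as C3, Igfbp3 and Sfrp4. Of 15233 genes, 1804 (11.8%) passed, 748 (4.91%) higher and 1056 (6.93%) lower in members, and 171 and 330 of these differed more than 2-fold. With the stricter fibroblast-gene gate 1483 (9.99%) of 14841 passed, 618 (4.16%) higher and 865 (5.83%) lower. In the comparison with Dlk1/Myoc fibroblasts, 1 of 18 complement genes was higher in members and 0 were lower (median log2 difference 0.09). Of 16 IGF-axis genes there, 1 was higher and 1 lower (median -0.02). The comparison with Clec3b/Inmt fibroblasts, described next, uses the same member sums, so the 2 are not independent.

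Complement genes were lower as a group, with 11 of 18 tested genes lower, 0 higher and a median log2 difference of -0.62. C3, the central complement component, stood at 30.8 and 34.2 CPM in members and at 555 and 592 CPM in Clec3b/Inmt fibroblasts (log2 difference -4.22 ± 0.13, edgeR adjusted p = 5.38e-11). C7, a part of the membrane attack complex, stood at 4.22 and 10.5 CPM against 244 and 323. The C1 inhibitor Serping1 had 760 and 824 CPM against 1253 and 1279, and the C1 protease gene C1ra had 134 and 153 CPM against 244 and 249. C3 was found in 135 (13.7%) and 169 (17.3%) members and in 495 (40.5%) and 520 (43.2%) Clec3b/Inmt fibroblasts.

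Of 16 genes of the insulin-like growth factor axis, 10 were lower and 1 higher, with a median log2 difference of -0.49. Igfbp3, a binding protein that carries IGFs, stood at 5.12 and 6.69 CPM in members against 332 and 269 CPM (-5.73 ± 0.14, edgeR adjusted p = 8.38e-12). Igfbp4 stood at 516 and 498 CPM against 780 and 717, and Igfbp6 at 798 and 738 CPM against 1183 and 1179. Members lay below in both libraries for all 3.

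Of the list of BMP and TGF beta signalling 13 of 33 tested genes were lower, 1 was higher and 19 did not pass. Of the list of Wnt signalling and its modulators 14 of 35 were lower, 3 were higher and 18 did not pass. The median log2 differences were -0.19 and -0.25, against -0.0014 over all genes. Chrdl1 stood at 4.35 and 2.27 CPM against 60.1 and 63.4, and Fst at 16.6 and 13.9 CPM against 62.7 and 53.1. Gdf10, a BMP-family ligand, had 4.61 and 5.89 CPM against 97.5 and 83.6. Sfrp4, a secreted Wnt antagonist, had 1.15 and 0.793 CPM against 61.5 and 51.0 (log2 difference -5.92 ± 0.21). Of 47 matrix glycoproteins 23 were lower and 6 higher, among them Fbln1, a fibulin of basement membranes and elastic fibres, at 4.22 and 3.06 CPM against 178 and 168. Of 40 matrix proteases, inhibitors and crosslinkers 19 were lower and 3 higher.

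Pi16, a marker of adventitial fibroblasts in many organs, stood at 5.50 and 4.76 CPM in members against 90.2 and 113 CPM. The chemokine Cxcl12 stood at 134 and 139 CPM against 491 and 473 (log2 difference -1.92 ± 0.16, edgeR adjusted p = 1.44e-06), and Penk at 136 and 141 CPM against 446 and 460. Cxcl13, the B cell attracting chemokine, had 3 UMIs in members of library 1 and 0 in the 978 members of library 2, which allows a share of barcodes with a UMI of up to 0.307%. This limits barcodes with a UMI at this depth, not cells that express the gene. It had 1674 and 1210 UMIs in 64 (5.23%) and 71 (5.90%) Clec3b/Inmt fibroblasts. Gsn, gelsolin, which marks fibroblasts broadly, stood at 8133 and 8573 CPM against 12263 and 12997.

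Of the endoneurial fibroblast list 9 of 16 tested genes were higher in members and 3 lower, with a median log2 difference of 0.29. In the comparison with Dlk1/Myoc fibroblasts 0 of the 16 were higher, 1 was lower and 15 did not pass (median 0.08). For Clec3b/Inmt fibroblasts DESeq2 called 4 higher and 2 lower, and the calls of Cdh19 and Meox1 were each lost in 3 of 12 alternative settings. Etv1, an ETS factor, stood at 161 and 178 CPM against 120 and 127 (0.37 ± 0.07, edgeR adjusted p = 0.00151), the cadherin gene Cdh19 at 305 and 332 CPM against 242 and 231, and the homeobox gene Meox1 at 200.1 and 202 CPM against 135 and 139. The 3 lower genes were Cilp, Lypd1 and Spon1, named after their values were seen, and Cilp stood at 1.54 and 0.680 CPM against 24.0 and 15.3. Ebf2, a fibroblast transcription factor, had 748 and 825 CPM against 568 and 611, and the laminin chain Lama2 had 2796 and 3113 CPM against 2115 and 2273. Satellite glia markers summed to 1454 and 1430 CPM in members and 1260 and 1171 CPM in Clec3b/Inmt fibroblasts, and their part in this group was not tested.

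Immediate early genes were not shifted together in this comparison, with 6 of 38 higher, 6 lower and a median log2 difference of 0.0041. Ccl2, at 188 and 93.3 CPM in members, stood at 74.4 and 42.3 CPM in Clec3b/Inmt fibroblasts (log2 difference 1.17 ± 0.10, edgeR adjusted p = 1.12e-06), and Ccl7, at 106 and 74.4 CPM in members, at 57.7 and 52.5 CPM. Mast cell markers summed to 126 and 143 CPM in members against 56.5 and 45.9 CPM, and macrophage markers to 68.6 and 74.1 CPM against 53.6 and 39.5 CPM. Both were higher in members in both libraries, and their part in Ccl2 and Ccl7 was not tested. Of 29 collagen chains 7 were higher and 8 lower, and Col1a2 stood at 4582 and 5072 CPM in members against 5122 and 5536.

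The genes with the largest positive differences from Clec3b/Inmt fibroblasts were typical of other cells. They were the neuronal genes Nrg3, Lingo2, Rbfox1, Ctnna2, Fgf14, Kcnq3, Snhg11 and Cntnap2, the mast cell protease gene Mcpt4, and the class II genes H2-Aa, H2-Ab1 and H2-Eb1 of antigen-presenting cells. Rbfox1 stood at 160.1 and 156 CPM in members against 47.0 and 31.3, and 5 members held 66.7% and 52.9% of its UMIs. For Mcpt4, at 54.1 and 71.1 CPM against 25.4 and 19.5, 5 members held 63.1% and 72.9%, while 15.0% and 15.8% of members and 13.8% and 15.0% of Clec3b/Inmt fibroblasts had a UMI. For H2-Aa, at 99.6 and 130 CPM against 18.9 and 67.7, 5 members held 67.6% and 47.7%. Without barcodes marked as doublets the log2 differences of H2-Aa, H2-Ab1 and H2-Eb1 changed sign to -0.64, -0.80 and -0.58, and none passed (edgeR adjusted p = 0.558, 0.371 and 0.543). With the stricter fibroblast-gene gate they were 1.90, 1.93 and 1.87, and all 3 passed. Neuronal markers summed to 1573 and 1485 CPM in members against 1305 and 1291 CPM, and their part in the neuronal genes was not tested.

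**Figure D5:**
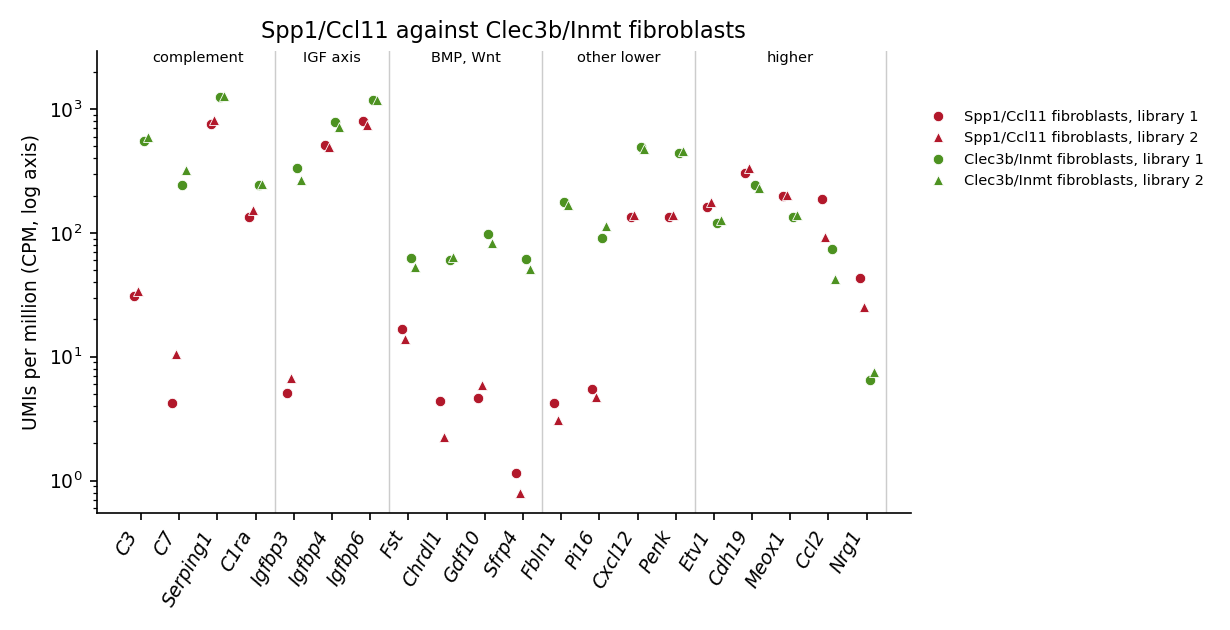
Levels of genes named in the comparison with Clec3b/Inmt fibroblasts (CPM of summed UMIs, log axis; circles, library 1; triangles, library 2; no error bars). Member points lie below for the plotted complement, IGF, BMP and Wnt genes, with C3 at 30.8 and 34.2 CPM against 555 and 592, and above for the 5 genes at the right.

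Within these ganglia, the naming genes were concentrated in fibroblast barcodes. Outside the fibroblast-gene gate, barcodes were put into 11 classes by marker genes. Pericytes or smooth muscle cells held the most Ccl11 of these, 145 and 131 CPM, and the most Crispld2, 195 and 220 CPM. Myelinating Schwann cells held the most Spp1, 37.2 and 33.5 CPM. Macrophages held 119 and 77.1 CPM of Cxcl1. Members held more of each gene than any of the 11 classes in both libraries.

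Ccr3, Cxcr2 and Ccr2 were low in members, and osteopontin receptors varied. Ccr3, the eotaxin receptor, had 0 UMIs in members, which allows a share of barcodes with a UMI, not of expressing cells, of up to 0.305% and 0.307%. It reached at most 6.15 CPM in any class. Cxcr2 stood at 0.384 and 0.113 CPM in members and at most 0.384 CPM in any class. Ccr2, the receptor of Ccl2 and Ccl7, was highest in dendritic cells or monocytes at 442 and 427 CPM, and stood at 6.53 and 5.78 CPM in members. Cd44, a receptor of osteopontin, reached 470 and 492 CPM in dendritic cells or monocytes and 36.0 and 34.0 CPM in members. Itgav, an integrin chain that binds osteopontin, stood at 83.3 and 80.4 CPM in members and 402 and 394 CPM in non-myelinating Schwann cells. The beta chain gene Itgb1 stood at 332 and 361 CPM in members, above macrophages (257 and 268 CPM) and neurons (261 and 285 CPM) and below pericytes or smooth muscle cells (790 and 777 CPM). Itga5 stood at 46.6 and 51.0 CPM in members.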

How the data were processed

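The authors deposited raw counts, UMIs per gene and barcode, for both libraries. Per the submitters' processing notes they used Cell Ranger 6.1.2 and mm10. The annotation, cell filters and strand or intron settings behind the counts are not stated in these notes. The member gates, gene lists and comparisons were chosen with earlier results of these data known.

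UMIs were summed per library and population. Sums of 4 populations entered 1 fit of edgeR 4.0.16 (R 4.3.3; filterByExpr, TMM, library as a block because the populations come from the same suspension, quasi-likelihood test, Benjamini-Hochberg adjustment over all genes). The 24 gate genes stayed in the library sizes and were not tested. Members summed to 7812282 and 8822775 UMIs, Dlk1/Myoc fibroblasts to 796625 and 980634, and Clec3b/Inmt fibroblasts to 10096415 and 10456673. Counts were not depth-matched except where thinned, and intervals cover counting error only. CPM and log2 differences are from these sums, and CPM compares populations, not genes. The SE is the absolute log2 difference divided by the square root of the F statistic of the test. It therefore uses the spread over the 4 populations of a fit, shared in part across genes, and not 2 libraries alone. On simulated data, with the same spread for every gene and no shift between libraries, the test recovered 46.3% (Dlk1/Myoc) and 85.1% (Clec3b/Inmt) of genes changed 2-fold among 15233. These rates may differ for the real sums. Doublets were scored with Scrublet (scanpy 1.11.5) and kept, except in an alternative.

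Named genes were drawn from the 12 most higher and 10 most lower by fold (adjusted p below 0.05, same direction in both libraries, at least 50 CPM), the leading members of each list, and the gate genes. Not all of these are described. Against Dlk1/Myoc fibroblasts, Phlda1, Rida, Pla2g7 and Ctsh (higher) and Itga6, Tsix, Sbspon, Cdh11 and Ntrk3 (lower) met the fold rule and are not described. The same holds for Ccbe1 (lower) against Clec3b/Inmt fibroblasts. Alternatives were DESeq2 1.42.0, other size factors, no filter, no block, doublets removed, other bounds, split UMIs, thinning, and 3 chosen after seeing the data. Python 3.11.15 was used.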

Additional observations from a re-analysis of the deposited data

How the results depend on the processing

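The populations of a library come from 1 suspension, so the library was a replicate block in the fits reported. Without the replicate block 97 genes passed against Dlk1/Myoc fibroblasts and 1139 against Clec3b/Inmt fibroblasts, in place of 363 and 1804. Against Dlk1/Myoc fibroblasts the count was 749 without the low-count filter, 168 when thinned to 1500 UMIs, 124 with at least 100 fibroblast-gene UMIs per 10000 and 181 without barcodes holding a Cxcl1 UMI. Against Clec3b/Inmt fibroblasts it was 915 with DESeq2 (272 higher and 643 lower) and 1184 when thinned. Between Spp1-led and Ccl11-led members, where 1 gene passed, 2 passed with DESeq2, 79 without the filter, 8 with a bound of 10, 6 with split UMIs and 2 when thinned. There, 0 passed with RLE size factors, without the block, without doublets or without shared barcodes.

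The mean share of members was 7.89% of barcodes. It was 7.51% without doublets, 7.35% and 8.11% with bounds of 10 and 3, 7.65% with the gates read on a random split of the UMIs and 6.63% with the stricter fibroblast-gene gate, and 7.81% and 7.96% in the single libraries. Among named genes, the log2 difference of Cntn5 against Dlk1/Myoc fibroblasts turned to 1.32 with the stricter gate and 1.20 without barcodes holding a Cxcl1 UMI, that of Epha5 to 0.73, 1.06 and, when thinned, 0.10, and that of Ctnna3 to 0.44 without doublets. The class II genes turned to -0.64 (H2-Aa), -0.80 (H2-Ab1) and -0.58 (H2-Eb1) against Clec3b/Inmt fibroblasts without doublets. The causes were not tested. Leaving out a library leaves 1 sum per population, so counts have no value there.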
